A study of Mus musculus with 23 samples.

Results

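The genes described here encode 9 subunits or enzymes of the tricarboxylic acid (TCA) cycle: Cs, Idh3a, Idh3b, Idh3g, Ogdh, Dlst, Suclg1, Fh1 and Mdh2. They were chosen by symbol, with no measured value in the rule, and are 9 of the 37310 gene identifiers counted in this RNA-seq and ChIP-seq study of Zbtb11, a zinc finger transcription factor. A Zbtb11 peak was assigned to a member if it touched the promoter, which was taken from 2000 bases upstream to 500 bases downstream of the annotated gene start.

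The TCA cycle runs in the mitochondrial matrix and oxidises acetyl groups from pyruvate, fatty acids and amino acids, passing their electrons to the respiratory chain as NADH and FADH2. Citrate synthase (Cs) opens the cycle, NAD-dependent isocitrate dehydrogenase and the 2-oxoglutarate dehydrogenase complex carry out its oxidative decarboxylations, succinyl-CoA ligase makes a nucleoside triphosphate, and fumarase (Fh1) and malate dehydrogenase (Mdh2) return the carbon to oxaloacetate. All of these proteins are encoded in the nucleus and imported into the organelle, so their supply depends on transcription factors that act on nuclear promoters.

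All samples were mouse embryonic stem cells (ESCs) of the E14 line, grown without feeders in serum and LIF. RNA-seq was measured after 48 h of treatment in 3 groups of 3 biological replicates. The EtOH control and the Zbtb11 KO cells were both Zbtb11 lox/lox with an ERt2-Cre transgene at Rosa26, the first given the carrier ethanol and the second 250 nM 4-hydroxytamoxifen (4OHT), which activates Cre and deletes exon 3. The 4OHT control was Zbtb11 WT/WT and Rosa26 WT, given the same 4OHT, and therefore differed from the EtOH control in both the line and the drug. ChIP-seq was measured with a Zbtb11 antibody in 4 libraries of Zbtb11 WT/WT cells and with anti-FLAG in 3 libraries of Zbtb11 FLAG/FLAG cells, with 2 anti-FLAG libraries of untagged WT cells as control. The edited lines came from colonies screened by PCR, so that the EtOH control and KO groups rest on 1 homozygous lox/lox line, and the replicates are separate samples of it. The ERt2-Cre fusion is driven from the Rosa26 locus and is not limited to a cell type. Nothing in the counts used here measures the share of cells that recombined. The paper measured the deletion in this line by other assays. It reports efficient loss of the exon and of functional transcripts, and a virtually absent ChIP signal for the protein by the time of the RNA-seq.

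The RNA-seq libraries held 14301457 to 23876604 reads on genes, and each member was covered by 1054 to 8157 reads in every library. The 7 pluripotency markers examined were above 1 CPM (count per 1e6 reads on genes) in all groups, with a summed level of 3300 to 4182 CPM. Of 5 fibroblast markers, 2 or 3 had a group mean above 1 CPM, and their sum was 15.7 to 27.4 CPM. Of 6 markers of primed or differentiating cells, 2 had a group mean above 1 CPM in each group, and their sum was 4.61 to 10.5 CPM. The annotation used for counting has no gene of the symbol Zbtb11, so the deletion was not checked from the counts. These are bulk samples, in which fewer cells of a kind and less RNA per cell cannot be told apart.

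All 9 members were expressed well above the typical gene. In the EtOH control, reads per kilobase of exon on the CPM scale (RPKM) ranged from 18.1 for Suclg1 to 118 for Cs, against a median of 5.77 over the 14346 genes tested, so that between 77.4% and 97.3% of genes lay below a member. Cs, which commits acetyl-CoA to the cycle, stood first with 118 ± 7.34 RPKM (SD, n = 3), and Mdh2, which closes it, second with 99.9 ± 14.1 RPKM. The 3 libraries of Mdh2, 83.6 to 109 RPKM, lay just below those of Cs, 109.9 to 123 RPKM. Next came Idh3a with 54.6 ± 2.18 RPKM, Ogdh with 53.1 ± 1.15 RPKM and Dlst with 51.8 ± 2.02 RPKM, and the ranges of Idh3a and Ogdh overlapped, as did those of Ogdh and Dlst. Below a gap of 1.41-fold followed Idh3g (36.8 ± 1.79 RPKM), Fh1 (29.7 ± 0.357 RPKM), Idh3b (22.3 ± 0.578 RPKM) and Suclg1 (18.1 ± 1.01 RPKM), none of which overlapped its neighbour in this order. The length used was that of all annotated exons of a gene merged, and the order depends on it. In CPM, which is not divided by length, the means ran in the order Cs, Ogdh, Mdh2, Dlst, Idh3a, Fh1, Idh3g, Suclg1 and Idh3b.

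The first comparison asked whether loss of Zbtb11 altered the RNA of these enzymes. In the Zbtb11 KO cells 0 of the 9 members passed the threshold of an adjusted p under 0.05 against the EtOH control (edgeR quasi-likelihood F test), where 0.899% of all tested genes did (0.843% lower and 0.0558% higher). At an unadjusted p under 0.05 the count was also 0, and DESeq2 called 0. The log2 fold changes of the members ranged from -0.08 for Idh3g to 0.10 for Cs, with standard errors of 0.06 to 0.13, and the adjusted p of every member was 1. For all 9 genes the CPM ranges of the KO and EtOH libraries overlapped, whereas 7.21% of tested genes had ranges that did not. The median size of a member's log2 fold change was 0.03, against 0.07 over all tested genes, whose median standard error (0.16) was also larger. The 95% intervals of the 9 members together reached from 0.791-fold (Mdh2) to 1.20-fold (Cs), so that changes beyond these limits lay outside the interval of every member. Each interval was for 1 gene and was not adjusted for the number of members, so these limits are not a joint 95% bound.

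**Figure D1:**
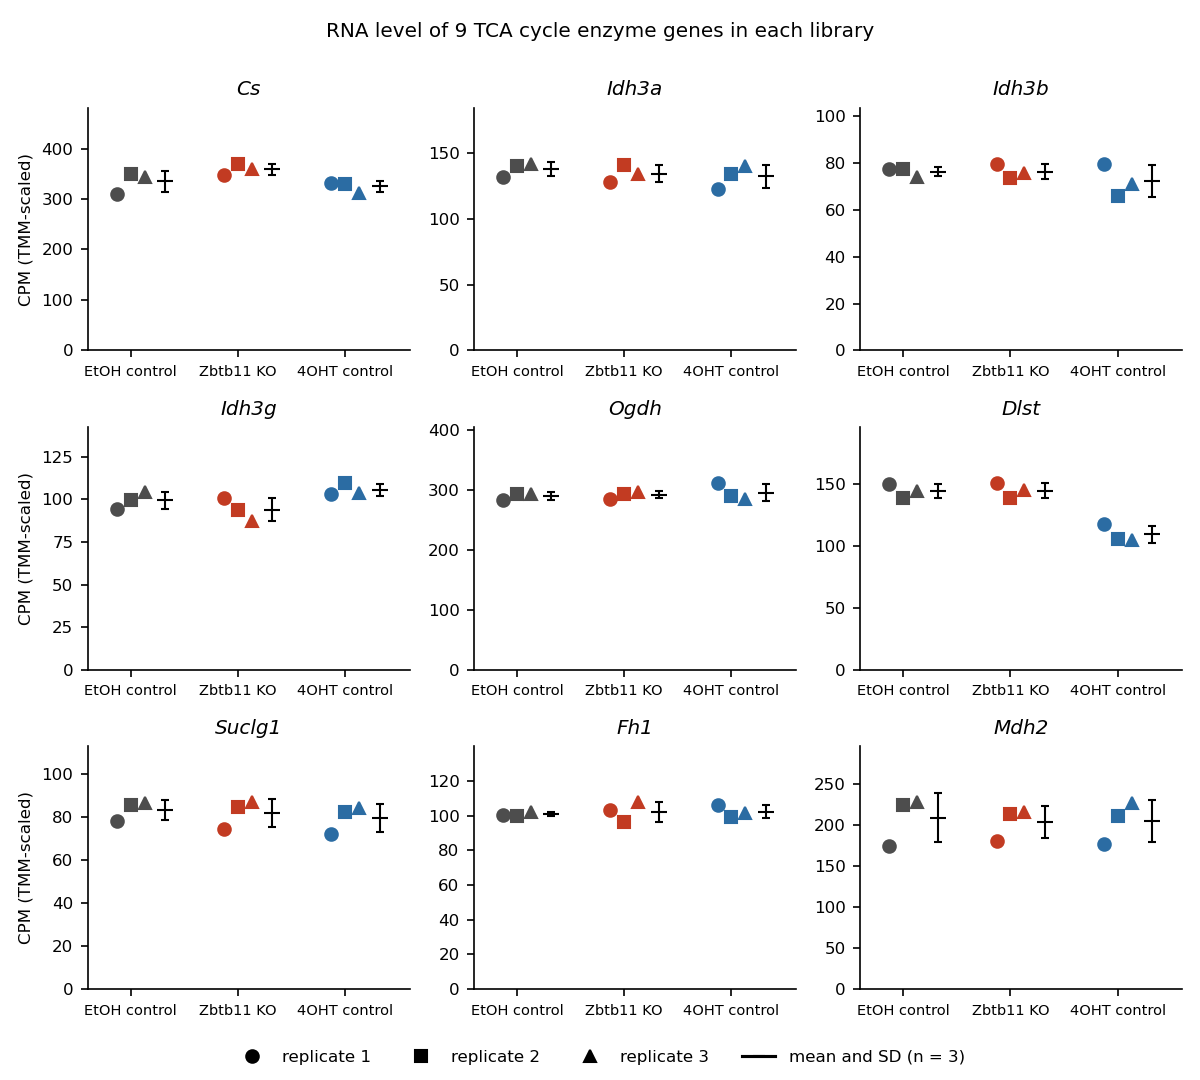
RNA level of the 9 members in each RNA-seq library, in CPM scaled by TMM on the vertical axis, with the group on the horizontal axis, the replicate number as the symbol and the mean and SD (n = 3) as bars. Dlst in the 4OHT control, 105 to 117 CPM, lies below the other 6 libraries, 138 to 151 CPM, and Mdh2 is lowest in replicate 1 of every group.

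Cs was the member with the highest KO value relative to control. The gene lies at mm9 chr10:127774888-127799535 on the plus strand. Its EtOH control libraries read 311, 349 and 344 CPM, and its KO libraries 348, 370.1 and 359.8 CPM. The KO library exceeded the EtOH library of the same number in 3 of 3 pairs, by 0.16, 0.08 and 0.06 on the log2 scale, but the lowest KO value, 348 CPM, lay just under the highest EtOH value, 349 CPM. The fitted log2 fold change was 0.10 ± 0.07 (SE, n = 3 per group, adjusted p = 1, edgeR).

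Isocitrate dehydrogenase 3 is a mixed assembly in which Idh3a carries the catalytic subunit and Idh3b and Idh3g the regulatory ones. The 3 genes lie at mm9 chr9:54434288-54452468 (plus strand), chr2:130105045-130110283 (minus strand) and chrX:71024302-71032236 (minus strand). For Idh3a the control values were 132, 140.1 and 142 CPM, against 128, 141 and 134 CPM after deletion. For Idh3b they were 77.3, 77.6 and 74.0 CPM, against 79.7, 73.4 and 75.8 CPM, and the 2 group means coincided (76.3 ± 1.98 and 76.3 ± 3.16 CPM, SD, n = 3). For Idh3g they were 94.5, 99.3 and 104 CPM, against 101, 93.5 and 87.2 CPM. The 3 Idh3g pairs differed in direction, with differences of 0.10, -0.09 and -0.26 (log2), and the fitted value was -0.08 ± 0.08 (SE).

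The 2-oxoglutarate dehydrogenase complex joins Ogdh, which decarboxylates 2-oxoglutarate, to Dlst, the core subunit that transfers the succinyl group to CoA. Ogdh (mm9 chr11:6191636-6256645, plus strand) read 283, 294 and 293 CPM without and 285, 294 and 296 CPM with the deletion. Dlst (mm9 chr12:86451783-86475041, plus strand) read 149.5, 138 and 144 CPM without and 151, 138 and 145 CPM with it, so that libraries of the same number nearly coincided, with log2 differences of 0.01, 0.00 and 0.01. Its fitted log2 fold change was 0.01 with a 95% interval of -0.16 to 0.18.

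Of the last 3 enzymes, Suclg1 (the alpha subunit of succinyl-CoA ligase) gave EtOH control values of 78.2, 85.6 and 86.8 CPM and KO values of 74.6, 84.7 and 86.9 CPM. Fh1, which hydrates fumarate to malate, gave 100.3, 99.9 and 102 CPM and then 103, 96.0 and 108 CPM. Mdh2 gave 175, 224 and 227 CPM and then 181, 213 and 216 CPM. They lie at mm9 chr6:73198376-73226905 (plus strand), chr1:177530505-177555766 (minus strand) and chr5:136254350-136266268 (plus strand). The pair ranges overlapped for each of the 3, and the interval of Mdh2 was the widest of the 9, from -0.34 to 0.26 (log2). In both groups of Mdh2 libraries the low value was that of replicate 1, with log2 differences of -0.37 and -0.25 from the mean of the other replicates, and -0.30 in the 4OHT control, whereas replicates 2 and 3 differed by -0.02, -0.02 and -0.10. Suclg1 and Idh3a were also lowest in replicate 1 of all 3 groups, with -0.14 to -0.20 and -0.10 to -0.16. Such gaps were not particular to these genes, since between 36.4% and 49.1% of tested genes deviated more in replicate 1 than Mdh2 did. The part of replicate 1 in the values of Mdh2, Suclg1 and Idh3a was not tested further.

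**Figure D2:**
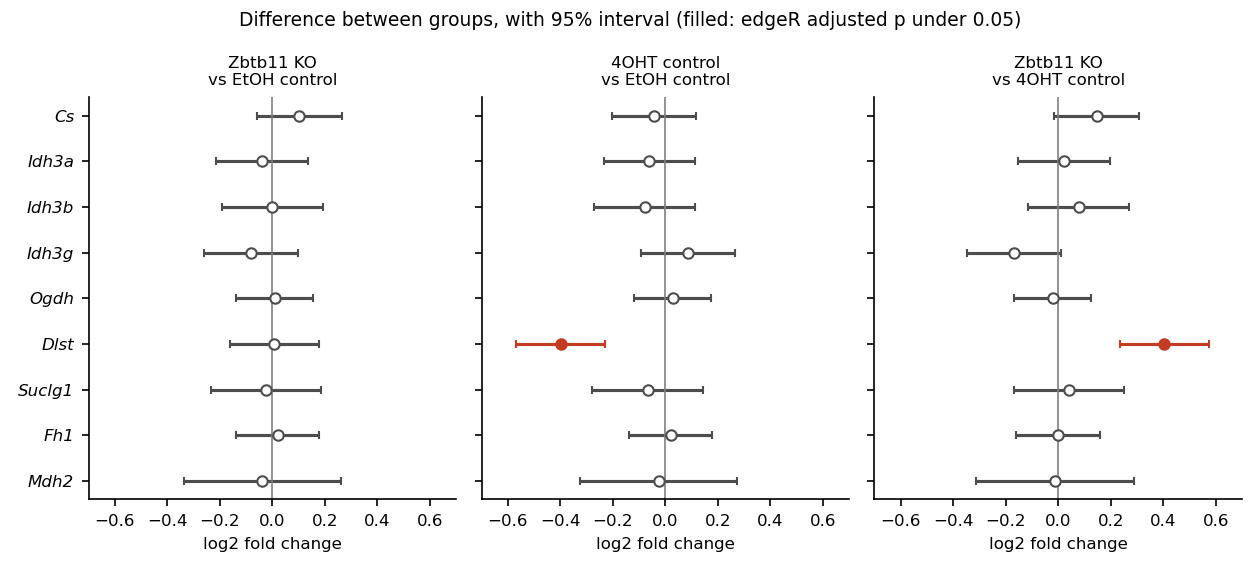
Log2 fold change of each member (horizontal axis) with its 95% interval in the 3 comparisons, filled red where the edgeR adjusted p was under 0.05. The KO against EtOH intervals all cross 0, and Dlst stands apart by -0.40 and 0.40 in the comparisons that involve the 4OHT control.

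The 4OHT control served to separate the effect of the drug from that of the deletion. Against the EtOH control 1 of the 9 members, Dlst, passed the threshold, where 4.06% of tested genes did (2.01% lower and 2.06% higher). Dlst was measured at 117, 106 and 105 CPM in the 4OHT control, and all 3 values lay below the lowest of the EtOH (138 CPM) and KO (138 CPM) libraries. Dlst was 1.32-fold lower than in the EtOH control (109 ± 7.06 against 144 ± 5.61 CPM, SD, n = 3), a log2 fold change of -0.40 ± 0.08 (SE) with a 95% interval of -0.57 to -0.23 and an adjusted p of 0.0232 (edgeR). It was lower in 3 of 3 pairs of the same replicate number, with differences of -0.35, -0.39 and -0.46 (log2). The line and 4OHT change together in this comparison and cannot be told apart, and in the KO cells, which received the same 4OHT, Dlst had a mean of 145 ± 6.16 CPM (SD, n = 3). The ranges of some pluripotency markers also did not overlap between the 4OHT and EtOH controls, a property of 21.7% of all tested genes. In the 4OHT control Klf4 was at 306 to 386 CPM against 219 to 265 CPM in the EtOH control, Pou5f1 at 769.7 to 819 against 616 to 739 CPM and Nanog at 448 to 525 against 550.3 to 666 CPM. In the KO cells Klf4 was at 211 to 293 CPM, below the 4OHT control. The KO ranges of Pou5f1 (655 to 775 CPM) and Nanog (513 to 681 CPM) overlapped those of the 4OHT control. The ranges of the other 4 markers overlapped between the 4OHT and EtOH controls, and the part of these marker differences in the Dlst value was not tested. By edgeR the Dlst call was lost without replicate 2 (adjusted p = 0.526) or replicate 3 (adjusted p = 0.402) of every group. It was also lost when the KO libraries were left out of the fit (adjusted p = 0.0795, edgeR). Log2 fold changes were then -0.41, -0.37 and -0.40, and these fits called 0.0896%, 0.165% and 1.22% of tested genes. The call was kept by DESeq2 (adjusted p = 1.07e-05) and with the replicate block (adjusted p = 4.83e-06, edgeR), where 8.27% and 33.6% of tested genes were called. The adjusted p ran from 4.83e-06 to 0.526 over all settings tried.

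The other 8 members had log2 fold changes of -0.08 (Idh3b) to 0.09 (Idh3g) between the 4OHT and EtOH controls, with adjusted p of 0.656 or more (edgeR), and overlapping ranges. Non-overlapping ranges were found for 21.7% of tested genes in this comparison. The summed level of the 9 members was 1426 ± 3.60 CPM in the 4OHT control, 1475 ± 65.6 CPM in the EtOH control and 1487 ± 31.8 CPM in the KO cells (SD, n = 3).

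Between the KO cells and the 4OHT control, which share the drug and differ in the line and in the deletion, Dlst was again the 1 member past the threshold, where 6.45% of tested genes were (3.72% lower and 2.73% higher). Its log2 fold change was 0.40 ± 0.08 (SE, adjusted p = 0.0138, edgeR), higher in 3 of 3 pairs. As the 4OHT control libraries are the same in both comparisons, this is not a second observation of the difference. Without replicate 2 or 3 of every group the edgeR adjusted p was 0.353 and 0.313, at log2 fold changes of 0.41 and 0.37, in fits that called 0.565% and 0.785% of tested genes. The ranges of Cs (348 to 370.1 against 312 to 333 CPM) and Idh3g (87.2 to 101 against 103 to 109.5 CPM) also did not overlap, a property shared by 22.9% of tested genes. Cs had a log2 fold change of 0.15 ± 0.07 (SE) and Idh3g of -0.17 ± 0.08 (SE), at edgeR adjusted p of 0.317 and 0.297. With the replicate number as a block both passed (adjusted p = 0.0418 and 0.0362, edgeR), so that 3 of 9 members were called, in a fit that called 34.9% of all tested genes. Without replicate 1 of every group Idh3g also passed (-0.24, adjusted p = 0.0329, edgeR), in a fit that called 18.7% of tested genes.

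Ratios between subunits of the same complex do not depend on the scaling of a library. Their size does depend on the merged exon lengths, which are the same in every library. The Dlst to Ogdh ratio of RNA per length was 1.04, 0.924 and 0.963 in EtOH libraries and 1.04, 0.924 and 0.959 in KO libraries. In the 4OHT control it was 0.739, 0.716 and 0.718, below all 6 other libraries, which gives group means of 0.975 ± 0.0578, 0.974 ± 0.0579 and 0.725 ± 0.0128 (SD, n = 3). Within isocitrate dehydrogenase 3, Idh3a exceeded Idh3b by 2.45 ± 0.145, 2.39 ± 0.211 and 2.50 ± 0.362 times in the EtOH control, the KO cells and the 4OHT control, and the ranges overlapped. The Idh3a to Idh3g ratio was 1.48 ± 0.0257, 1.53 ± 0.156 and 1.34 ± 0.0918 in the same order, and here the ranges of the EtOH and 4OHT controls (1.46 to 1.51 and 1.27 to 1.44) did not meet. The Idh3g to Idh3b ratio was 1.65 ± 0.119, 1.56 ± 0.0871 and 1.86 ± 0.232, and the ranges of the KO cells and the 4OHT control (1.46 to 1.61 and 1.64 to 2.10) did not meet. These ratios were not tested, and single genes with ranges that did not overlap made up 21.7% and 22.9% of tested genes in the same pairs of groups.

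**Figure D3:**
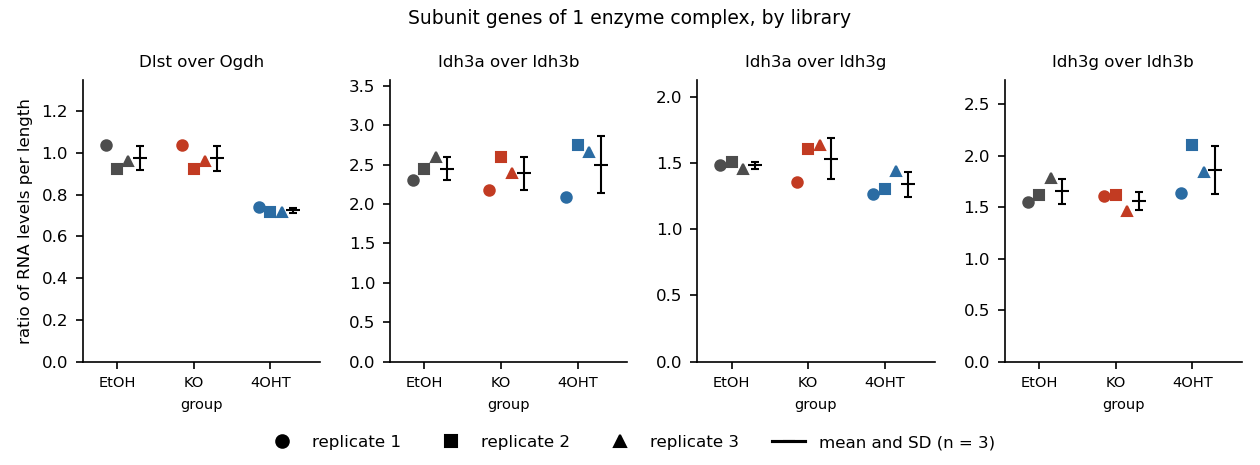
Ratio of RNA levels per length between subunit genes of the 2-oxoglutarate dehydrogenase complex (left) and of isocitrate dehydrogenase 3, by library (symbols) with mean and SD (n = 3), in the EtOH control, Zbtb11 KO cells and 4OHT control. The Dlst to Ogdh ratio is 0.716 to 0.739 in the 4OHT control and 0.924 to 1.04 in the other 6 libraries.

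The rest of the pathway was followed in 37 further genes, of which 35 were tested. They covered the entry of pyruvate (14 genes for its carrier, the pyruvate dehydrogenase complex and the kinases and phosphatases that regulate it, and pyruvate carboxylase), the other enzymes of the cycle and their relatives (10 genes) and enzymes and carriers that link it to the cytosol and amino acids (13 genes). In the KO cells 0 of the 35 were called against the EtOH control, where 0.899% of all tested genes were. The 35 log2 fold changes ranged from -0.14 for Pdk1, a kinase that inactivates pyruvate dehydrogenase, to 0.13 for Pdk2, with a median of -0.02. Pdk1 passed only in replicates 2 and 3 with the replicate block (-0.26, adjusted p = 0.0228, edgeR). In the 4OHT control 1 of the 35 genes was called lower than in the EtOH control and 0 higher, where 2.01% and 2.06% of all tested genes were. This gene was Glud1, which encodes glutamate dehydrogenase and feeds 2-oxoglutarate into the cycle. Its values were 411, 415 and 419.8 CPM in the EtOH libraries, 402, 397 and 409 CPM in the KO libraries and 306, 301 and 303 CPM in those of the 4OHT control. All 4OHT control libraries thus lay below the other 6, as for Dlst. The share of tested genes set apart from both other groups was not counted. Ranges that did not overlap were found for 21.7% of tested genes between the 4OHT and EtOH controls. Between the KO cells and the 4OHT control the share was 22.9%. Of the markers Klf4, Pou5f1 and Nanog, only Klf4 also separated the 4OHT control from both other groups, with higher values. The part of this difference in the Glud1 value was not tested. The log2 fold change of Glud1 against the EtOH control was -0.45 ± 0.06 (SE, adjusted p = 0.00492, edgeR). In the edgeR fits without replicate 2 or 3 of every group the adjusted p was 0.416 and 0.269, where 0.0896% and 0.165% of tested genes were called. In the edgeR fit of all libraries the other tested genes were not called and reached from -0.29 (Slc25a10, the dicarboxylate carrier) to 0.43 (Pdk2) on the log2 scale, and the median over the lists was 0.01. DESeq2 called 4 of the 35 (1 lower and 3 higher), where it called 8.27% of all tested genes. Among the 4 were Sdha (DESeq2 adjusted p = 0.00231) and Got2 (adjusted p = 0.00351), both higher in the 4OHT control.

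Between the KO cells and the 4OHT control 2 of the 35 genes were called lower and 1 higher, where 3.72% and 2.73% of all tested genes were. In this edgeR fit none of these 3 belonged to the entry of pyruvate. The 35 log2 fold changes ran from -0.44 for Pdp2, a pyruvate dehydrogenase phosphatase, to 0.42 for Slc25a10, neither of which was called. Glud1 was higher by 0.41 ± 0.06 (SE, adjusted p = 0.00365, edgeR), against the same 4OHT control libraries. Sdha, the flavoprotein of succinate dehydrogenase, was lower by 0.26 ± 0.06 in the KO cells (198 ± 0.496 against 236 ± 11.0 CPM, edgeR adjusted p = 0.0474), and Got2, the mitochondrial aspartate aminotransferase, by 0.29 ± 0.07 (204 ± 0.591 against 249.8 ± 9.46 CPM, adjusted p = 0.0343). In the EtOH control Sdha was at 203 ± 3.21 CPM and Got2 at 210.0 ± 9.98 CPM. Without replicate 2 or 3 of every group none of the 3 genes passed in edgeR, with adjusted p of 0.196 to 0.522, where 0.565% and 0.785% of tested genes were called. When the EtOH libraries were left out of the fit Sdha (adjusted p = 0.142, edgeR) and Got2 (adjusted p = 0.0927) were lost as well. With no filter on low counts both were again lost (adjusted p = 0.219 and 0.156, edgeR), and Sdha also with library sizes in place of TMM (adjusted p = 0.0874) and with filterByExpr (adjusted p = 0.057). With the replicate block the calls among the 35 genes rose from 1 to 12 in the 4OHT against EtOH comparison and from 3 to 15 in the KO against 4OHT comparison, while 33.6% and 34.9% of all tested genes were called in those fits. Without replicate 1 of every group the calls were 6 and 8, where 17.1% and 18.7% of tested genes were called, and by DESeq2 4 and 5, where 8.27% and 10.2% were. Pdk1 was among those lower in the KO cells than in the 4OHT control without replicate 1 (-0.33, adjusted p = 0.00832, edgeR). In the KO against EtOH comparison the block left 0 of the 35 and 0 of the 9 members called, where it called 2.25% of tested genes.

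Zbtb11 occupancy was read from the consensus set of high-confidence peaks, which rests on both the Zbtb11 antibody and the FLAG tag and holds 7500 regions. A promoter peak was present at 3 of the 9 members, Dlst, Idh3b and Idh3g, and 28.1% of all tested genes had one. The same 3 members had a peak in the Zbtb11 list (33.0% of tested genes) and in the FLAG-Zbtb11 list (33.5%), and no member had one in the FLAG control list (0.216%). None of the 9 carried a Zbtb11-high peak, defined as coverage above the upper quartile by more than 1.5 interquartile ranges, which 5.69% of tested genes had. For the other 6 members the nearest high-confidence peak lay 16087 bases (Ogdh) to 208198 bases (Suclg1) from the gene start.

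At Dlst the peak (mm9 chr12:86451252-86452452) was centred 69 bases downstream of the start, in the first exon, with 531 of its bases upstream of the gene. Its normalised coverage, as made by the authors, was 288, 274, 276 and 310.4 in the 4 Zbtb11 libraries, a mean of 287 ± 16.7 (SD, n = 4) and 4.02 times the median peak. This placed it at rank 927 of the 7500 and at 93.0% of the Zbtb11-high limit of 309, just below the 857 peaks above that limit. In the 3 FLAG-Zbtb11 libraries the coverage was 449.6, 390.4 and 305 (382 ± 72.6, SD, n = 3), rank 543, and there it exceeded the limit set in the same way for the FLAG libraries (260.5). Dlst was therefore the 1 member counted as Zbtb11-high from the FLAG libraries or from all 7 together.

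The Idh3b peak (mm9 chr2:130109469-130110669) was centred 214 bases downstream of the start, in an intron, and 386 of its bases lay upstream. Its coverage was 43.3, 52.9, 70.8 and 56.8 in the Zbtb11 libraries (56.0 ± 11.4, SD, n = 4, rank 4547) and 53.8, 49.7 and 83.9 in the FLAG-Zbtb11 libraries (62.5 ± 18.7, SD, n = 3, rank 3916), near the middle of the set in both. The Idh3g peak (mm9 chrX:71031195-71032395) was centred 441 bases into the gene, also in an intron, and was among the weakest of the set. Its coverage was 23.3, 6.41, 27.2 and 10.6 in the Zbtb11 libraries (16.9 ± 9.96, SD, n = 4, rank 7276) and 25.3, 46.8 and 47.2 in the FLAG-Zbtb11 libraries (39.8 ± 12.5, SD, n = 3, rank 5621). In whole steps of the normalised scale the Idh3g values were only 4 to 45 steps per Zbtb11 library, against 171 to 456 at Dlst. In the FLAG-Zbtb11 libraries they were 16 to 113 steps, against 267 to 731 at Dlst. Whether a step stands for 1 read was not checked. The coverage of Dlst was above that of Idh3b, and that of Idh3b above Idh3g, in each of the 7 libraries.

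**Figure D4:**
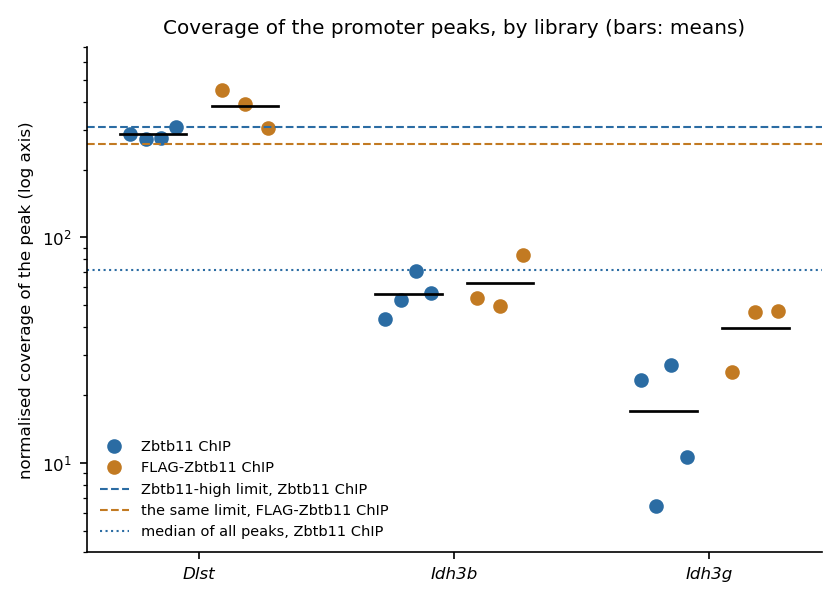
Normalised coverage (log axis) of the 3 promoter peaks in the 4 Zbtb11 and 3 FLAG-Zbtb11 libraries, with bars at the means, dashed lines at the Zbtb11-high limit of each antibody (309 and 260.5) and a dotted line at the median of all peaks in the Zbtb11 libraries (71.3). Dlst lies near or above the limits, Idh3b near the median and Idh3g below it.

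With the RNA set beside the occupancy, the member with the strongest peak, Dlst, had a log2 fold change of 0.01 in the KO cells, and the members with weaker peaks, Idh3b and Idh3g, of -0.00 and -0.08. The 6 members with no peak ranged from -0.04 (Idh3a) to 0.10 (Cs). With 3 and 6 genes these values were not tested against each other.

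Head-to-head partners were found at 2 members, in which a second gene starts on the other strand within 1000 bases. Ssr4, a subunit of the translocon-associated protein complex, starts 131 bases from Idh3g, and its first exon is reached by the fixed-width high-confidence region at Idh3g but not by the narrower Idh3g peak of either list. Ssr4 read 27.3, 27.2 and 24.7 CPM in EtOH libraries and 27.8, 29.3 and 24.0 CPM in KO libraries, with a log2 fold change of 0.04 ± 0.11 (SE, adjusted p = 1, edgeR). Styxl1 starts 95 bases from Mdh2, was counted at 1 to 9 reads per library and was not tested.

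The bases just upstream of the start of the 3 members with a peak are shown here, read 5′ to 3′ along the gene's strand from the mm9 genome. These runs are not the peaks themselves, whose centres lie 69 (Dlst), 214 (Idh3b) and 441 bases (Idh3g) downstream of the start. The Idh3g run lies outside the Idh3g peak of either list, so the runs do not compare bound sites of different strength. Capitals mark CCGGAAG, a core of sites bound by ETS factors such as GABP, a known regulator of nuclear genes for mitochondrial proteins. For Idh3g the run is the whole of the 130 bases between its start and that of Ssr4.
Dlst, chr12:86451663-86451782, plus strand: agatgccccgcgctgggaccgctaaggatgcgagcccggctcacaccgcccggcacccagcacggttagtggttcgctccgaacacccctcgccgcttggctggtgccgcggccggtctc
Idh3b, chr2:130110284-130110403, minus strand: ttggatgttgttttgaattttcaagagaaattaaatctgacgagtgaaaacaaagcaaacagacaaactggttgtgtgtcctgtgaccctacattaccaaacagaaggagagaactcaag
Idh3g, chrX:71032237-71032366, minus strand: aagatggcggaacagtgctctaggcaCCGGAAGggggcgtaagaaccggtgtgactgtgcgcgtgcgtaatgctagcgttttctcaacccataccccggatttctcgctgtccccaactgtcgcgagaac
GC content was 71.7% in the Dlst run, 57.7% in the Idh3g run and 37.5% in the Idh3b run, with 15, 12 and 1 CG dinucleotides, and the match upstream of Idh3g lies 104 bases before its start. Over 500 bases on each side of the start, GC content was 63.0% at Dlst, 60.3% at Idh3g and 50.0% at Idh3b, within a range of 50.0% to 65.1% for all 9 members and beside a median of 58.3% over 14327 promoters of tested genes. The ratio of observed to expected CG was 0.696 (Cs) to 0.934 (Ogdh) in the members, with a median of 0.703 over these promoters.

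In that window of 1000 bases CCGGAAG was found on either strand in 8 of the 9 members, Fh1 being the exception, and in 26.5% of the promoters of tested genes. The matches are given in windows of 29 bases along the gene's strand, to show that members with and without a Zbtb11 peak hold them. A match written CTTCCGG is on the opposite strand of the gene, and the number is the position of its first base, counted from 1 at the start and negative upstream.
Dlst, 2, exon, chr12:86451773-86451801: ggccggtctcaCTTCCGGttgctgccggg
Idh3b, 92, exon, chr2:130110175-130110203: gaccgcgctcgCTTCCGGcgtcacttccc
Idh3g, -104, upstream, chrX:71032323-71032351: tgctctaggcaCCGGAAGggggcgtaaga
Idh3g, 354, exon, chrX:71031866-71031894: tgtgccttcctCCGGAAGggttgggaagg
Cs, 305, intron, chr10:127775181-127775209: tgctgcgtgccCTTCCGGctaaggtgaac
Idh3a, -204, upstream, chr9:54434073-54434101: aggggaggaggCTTCCGGgtcgcagctgg
Ogdh, 158, intron, chr11:6191782-6191810: atgcgtccttgCTTCCGGagtgcctgagt
Suclg1, 455, intron, chr6:73198819-73198847: gtgtccgggctCTTCCGGgcgggccctcg
Mdh2, -117, upstream, chr5:136254222-136254250: agcgctaggtcCCGGAAGtgggcaaagct
The first 4 lines lie within the high-confidence regions of their genes, and the other 5 belong to members with no promoter peak. The regions have a fixed width, and the Idh3g peaks as called were narrower, 645 bases in the Zbtb11 list and 671 bases in the FLAG-Zbtb11 list, and began 99 and 110 bases inside the gene, so that the match at -104 lies outside both. At Dlst the match begins on the second base of the annotated first exon. At Mdh2 it lies within the first exon of Styxl1. Among the 7500 high-confidence peaks 39.1% held the same letters. A match is a description of these letters and was not tested as a binding site.

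**Figure D5:**
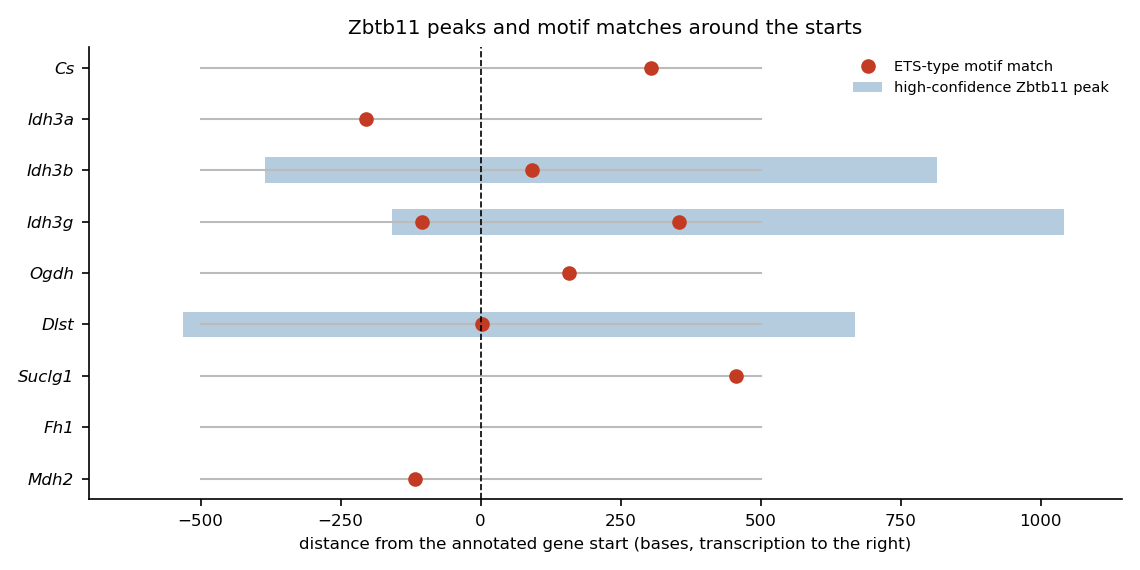
Position of Zbtb11 peaks (bars) and CCGGAAG matches (circles) relative to the annotated start of each member, in bases on the horizontal axis, with transcription to the right and the 1000-base window searched as a grey line. Peaks are drawn for Dlst, Idh3b and Idh3g, and matches for 8 of the 9 members, at -204 to 455.

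The genes whose levels followed the members most closely over the 9 libraries were Chd1l (Pearson r = 0.933), Pabpc1 (r = 0.928) and Spink3 (r = 0.928), by correlation of log2 CPM with the mean of the members' standardised log2 CPM. Spink3 was at 0.678 to 3.79 CPM, Chd1l at 46.5 to 60.8 CPM and Pabpc1 at 1874 to 2088 CPM. The members themselves correlated with this mean by r of -0.27 (Idh3g) to 0.71 (Cs), so the 9 genes did not share 1 profile. Idh3a, Suclg1 and Mdh2, each lowest in replicate 1, correlated with each other by r of 0.87 to 0.91. The other pairs of members ran from -0.63 to 0.64. Chd1l, Pabpc1 and Spink3 have the highest values among all tested genes outside the members and the pathway lists, over 9 libraries that share replicate numbers. They are given without a test.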

How the data were processed

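RNA-seq was measured in 9 libraries, from ribosome-depleted total RNA with a directional kit. The authors trimmed the reads, aligned them to the mouse transcriptome with STAR, counted them per gene with HTSeq and deposited the raw counts of each sample. Gene identifiers are those of GENCODE vM1 (mm9), versions of STAR and HTSeq and the strand setting of HTSeq are not given in the sources used here, and rows without a gene (25.3% to 31.6% of the counted reads had no feature) were left out. ChIP-seq reads were aligned by the authors to mm9 with Bowtie 1.1.2, duplicates were removed, peaks were called with MACS2 on all replicates of an antibody, and coverage over the consensus peaks was normalised between libraries with DiffBind and deposited as signal. Peak positions are those of the deposited lists, and the input libraries were not analysed here.

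Counts were tested with edgeR 4.0.16 in R 4.3.3 (TMM, quasi-likelihood F test, all 3 groups in 1 fit, genes above 1 CPM in at least 3 libraries, Benjamini-Hochberg over 14346 genes, two-sided, threshold 0.05). CPM and RPKM values of tested genes are scaled by TMM. For edgeR, a standard error is the absolute log2 fold change divided by the square root of the F statistic. The 95% intervals were made from this error and a t quantile, with the spread estimated over all RNA-seq libraries of the fit. CPM values of the cell type markers and of untested genes are scaled by library size alone. The procedure was tested on simulated data. Replicates are labelled as biological replicates. The 9 correlations between deviations of libraries of the same replicate number were 0.43 to 0.82, against -0.75 to 0.53 for different numbers. All negative values involved a replicate 1, which stood apart from replicates 2 and 3. Between replicates 2 and 3 the separation was weaker. EtOH control 2 went with 4OHT control 3 by 0.53 and with 4OHT control 2 by 0.43. Pairing by number was therefore assumed rather than shown for replicates 2 and 3. A fit with the replicate number as a block was run beside the fit without it. The alternatives were DESeq2 1.42.0, library sizes in place of TMM, no filter, filterByExpr, 2 groups only, a threshold of 0.01, omission of each replicate, and the block. Depth was 14301457 to 23876604 reads on genes per RNA-seq library, and 611932 to 1915856 steps of the normalised scale within the peaks of a ChIP library. A share of peaks or promoters is a count with no replicate test.

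The members, gene lists, markers and tests were chosen with earlier results of these data known, and the CCGGAAG motif and the printed windows were chosen after the values had been seen. A core motif of the transcription factor NRF-1 was also searched for, and the result of that search is not given here. The genes named were the 9 members, the called genes of the pathway lists and the ends of their ranges, head-to-head partners within 1000 bases, and the 3 genes most like the mean of the members. In a search with blastn 2.17.0, exons of Cs and Suclg1 had 1 and 29 near-identical copies (95% or more over at least 100 bases) elsewhere in mm9, none in an annotated exon, and the other 7 members had none. Idh3b shares 5 exonic bases with Nop56 on the opposite strand.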

Additional observations from a re-analysis of the deposited data

How the results depend on the processing

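No setting called a member in the KO against EtOH comparison, and the count of members with a promoter peak was 3 throughout. Members called in the 4OHT against EtOH comparison were 1 as reported, 0 with only the 2 groups compared, 0 at a threshold of 0.01, and 0 to 1 when 1 replicate was left out. In the KO against 4OHT comparison they were 1 as reported, 3 with the replicate block, 3 in replicates 2 and 3 with the block, 0 at a threshold of 0.01, and 0 to 2 without 1 replicate. The Zbtb11-high count was 0, and 1 with the FLAG-Zbtb11 libraries or all 7 libraries. Over all genes, calls in the 3 comparisons (KO against EtOH, 4OHT against EtOH, KO against 4OHT) were 129, 583 and 925, against 323, 4816 and 5010 with the block, 322, 3914 and 4174 in replicates 2 and 3 with it, 180, 1187 and 1469 by DESeq2, 113, 171 and 570 with 2 groups only, 100, 134 and 394 at a threshold of 0.01, 212, 2420 and 2645 without replicate 1, 13, 13 and 82 without replicate 2, and 21, 24 and 114 without replicate 3. Beyond the calls given with their genes in the text, the block over all 3 replicates changed no other call of a member or of Ssr4. In replicates 2 and 3 the block added Ssr4 between the 4OHT and EtOH controls (0.23, adjusted p = 0.0395, edgeR, against 0.184 without it).

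Signs turned for log2 fold changes close to 0, and no called value reversed. KO against EtOH, library sizes in place of TMM gave Idh3b 0.037, Suclg1 0.012, Mdh2 0.0014 and Sdha 0.0037, no filter gave Idh3b 0.0029 and filterByExpr 0.0012. 4OHT against EtOH, replicates 2 and 3 with the replicate block gave Ogdh -0.024 and Fh1 -0.0066. KO against 4OHT, the same fit gave Idh3a -0.0017, Ogdh 0.030 and Fh1 0.014, library sizes gave Ogdh 0.0068, Fh1 0.027 and Mdh2 0.017, and Fh1 was 0.0027 by DESeq2, 0.0092 with no filter, 0.0014 with filterByExpr and 0.0022 with 2 groups only. Without 1 replicate, KO against EtOH values ran from -0.025 to 0.037 for Idh3b, -0.17 to 0.0039 for Idh3g, -0.0097 to 0.054 for Fh1 and -0.0063 to 0.069 for Ssr4. The 4OHT against EtOH values ran from -0.11 to 0.0039 for Cs, -0.024 to 0.061 for Ogdh, -0.0063 to 0.035 for Fh1, -0.040 to 0.0056 for Mdh2 and -0.020 to 0.074 for Pdk1. The KO against 4OHT values ran from -0.0059 to 0.067 for Idh3a, -0.055 to 0.030 for Ogdh, -0.042 to 0.019 for Fh1 and -0.034 to 0.022 for Mdh2. The causes were not tested.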
